A study of Mus musculus with 6 samples.

Results

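Of the 17606 genes quantified in sorted mouse corneal keratocytes, 10 encode surface proteins used to recognise mesenchymal stem and progenitor cells, and these 10 were chosen by symbol: Thy1 (CD90), Nt5e (CD73), Eng (CD105), Cd34, Cd44, Vcam1 (CD106), Alcam (CD166), Ly6a (Sca-1), Lepr (the leptin receptor) and Dpp4 (CD26). Corneal stromal cells were sorted by flow cytometry from mice treated with tamoxifen at 10 weeks of age (3 doses) and studied after 1 month. The Ptch1-ablated group (3 libraries) carried Prrx1-CreERT, an inducible Cre recombinase knocked into Prrx1, with floxed Ptch1. The control group (3 libraries) received the same tamoxifen, and its genotype is not given further in the labels, so whether it carried the Cre is not known. The floxed line had been backcrossed to C57BL/6, mice of both sexes were used in the study with no sex named per library, and the gate of the sort is not given in the sources used here. Prrx1-CreERT also recombines in corneal endothelial cells. Each group was described as 3 biological replicates.

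Keratocytes are the quiescent mesenchymal cells of the corneal stroma and are known for Cd34 on their surface. Mesenchymal stromal cells grown in culture are defined by Thy1, Nt5e and Eng together, and usually lack Cd34. Ly6a, Lepr, Vcam1, Alcam, Cd44 and Dpp4 mark stem or progenitor fractions of mesenchyme in bone marrow, fat and skin, but none of them belongs to mesenchyme alone: T cells carry Thy1, and vascular endothelium carries Eng, Cd34 and Ly6a. Ptch1 is the receptor that holds Hedgehog signaling off, and the comparison asked how these surface genes stood when it was targeted.

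The libraries held between 20258414 and 24788039 estimated counts, so that 3 counts, the limit that a count of 0 allows, amounted to between 0.121 and 0.158 CPM (normalized counts, each library brought to the same total; counting error only). Ptch1 itself had 172, 104 and 369 counts in control libraries 1, 2 and 3 and 4348, 5194 and 6230 in the libraries labelled Ptch1-ablated. The gene total does not resolve the floxed exons, and it was higher where the label says ablated, so it does not check the deletion. The directions given here follow the labels. Gli1, a Hedgehog target, had at most 36 counts in the controls and between 3022 and 3098 in the libraries labelled Ptch1-ablated. The labelled cell type was checked with its markers: Kera, for the stromal proteoglycan keratocan, had between 251885 and 328811 counts in the controls and between 88567 and 136921 in the Ptch1-ablated libraries, and Lum, for lumican, had at least 199177 counts in every library.

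Promoter windows are shown for Lepr and Alcam, the genes with the largest rise and the largest fall among the 7 members for which a RefSeq promoter was matched (Thy1, Vcam1 and Ly6a were not matched). Each window is the 250 bases before an annotated start on build GRCm38.p6, which is not the build named for the deposited counts (mm9). Capitals mark CCACCC or its reverse GGGTGG, the core of the motif recognised by Gli proteins.
Lepr, chr4:101717157-101717406, plus strand: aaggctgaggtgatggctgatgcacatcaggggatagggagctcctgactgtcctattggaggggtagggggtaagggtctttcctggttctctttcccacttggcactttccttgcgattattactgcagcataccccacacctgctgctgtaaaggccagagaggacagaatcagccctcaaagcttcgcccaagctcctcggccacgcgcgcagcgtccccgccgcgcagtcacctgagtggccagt
Lepr, chr4:101717656-101717905, plus strand: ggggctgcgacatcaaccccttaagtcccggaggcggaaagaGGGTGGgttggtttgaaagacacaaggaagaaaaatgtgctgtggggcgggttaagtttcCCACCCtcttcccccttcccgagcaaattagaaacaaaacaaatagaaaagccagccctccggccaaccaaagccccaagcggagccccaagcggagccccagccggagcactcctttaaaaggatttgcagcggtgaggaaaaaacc
Alcam, chr16:52453082-52453331, minus strand: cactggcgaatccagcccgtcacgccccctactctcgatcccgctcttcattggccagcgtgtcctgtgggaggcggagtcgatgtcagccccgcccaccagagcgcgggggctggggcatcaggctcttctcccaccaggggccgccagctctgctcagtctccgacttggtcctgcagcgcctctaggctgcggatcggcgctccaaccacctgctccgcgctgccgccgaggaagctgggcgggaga

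The second Lepr window held the core at 2 places, and the other windows printed held none. The full Gli consensus GACCACCCA, searched with its reverse TGGGTGGTC, was in 0 of the 8 windows of the 7 matched members, against 74 of 32851 windows (0.225%) over all genes. The core alone, chosen after the windows were seen and contained in the consensus, was in 2 of the 8 windows (25%, Eng and the second Lepr start) and in 28.1% of all windows. These matches describe letters in the windows only. The Alcam window held 22 CG dinucleotides and each Lepr window held 10.

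All 10 members had enough counts to be tested, and all 10 differed between the groups at an adjusted p of at most 0.05 (edgeR quasi-likelihood test with Benjamini-Hochberg adjustment over 13888 genes). Of all genes tested 8.48% passed this threshold, 4.68% higher and 3.8% lower in the Ptch1-ablated group. The members were chosen with earlier results of these data known, so the number of them that passed is not independent support. The 6 members that were higher were Thy1, Lepr, Ly6a, Nt5e, Dpp4 and Eng, and the 4 that were lower were Alcam, Cd34, Cd44 and Vcam1. A fold change of at least 2, the further threshold of the study, was met by 7 members (5 higher and 2 lower), where the share over all genes was 5.49% (3.36% higher and 2.13% lower). With no test, 16.4% of all genes tested and the same 7 members had a fold change of at least 2. In each of the 10 genes the 3 control libraries lay entirely on one side of the 3 ablated libraries, which 27.4% of all genes tested did. The median log2 fold change (Ptch1-ablated over control) was 0.92 over the members and 0.0046 over all genes tested. These are bulk libraries, in which fewer cells of a type and less RNA per cell cannot be told apart. Nt5e and Eng lay closest to the threshold and did not hold it when libraries were left out, as given with each.

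**Figure D1:**
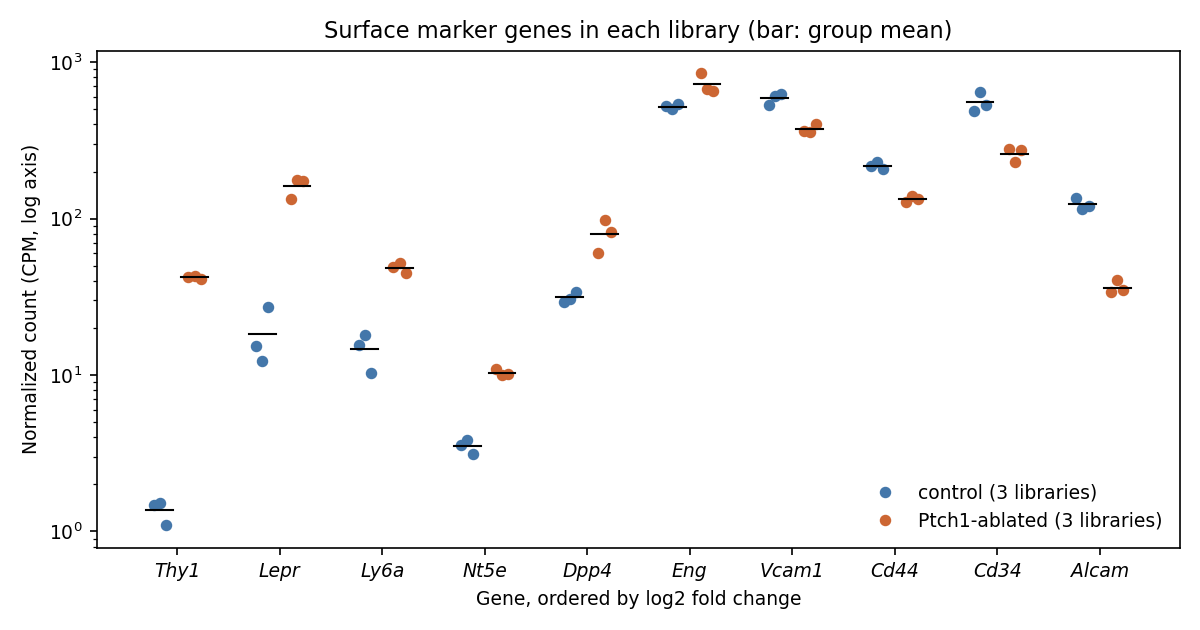
Normalized count (CPM, log axis) of each of the 10 surface marker genes, ordered by log2 fold change, in the 3 control libraries (blue) and the 3 Ptch1-ablated libraries (orange), with a black bar at each group mean. No gene has overlapping groups, and the distance between groups runs from 30.9-fold in Thy1 to 1.39-fold in Eng.

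Thy1, Nt5e and Ly6a encode proteins held to the outer membrane by a GPI anchor. Thy1, a small immunoglobulin-type glycoprotein, had 32, 29 and 25 counts in control libraries 1, 2 and 3, and 994, 1009 and 1021 counts in ablated libraries 1, 2 and 3. In normalized terms this was 1.47, 1.53 and 1.09 CPM against 42.4, 42.9 and 41.1 CPM. The ablated libraries were close to one another (42.1 ± 0.909 CPM, SD, n = 3), and the lowest of them lay far above the highest control. The log2 fold change was 4.95 ± 0.30 (SE; 95% interval 4.30 to 5.59), or 30.9-fold, with an edgeR adjusted p of 8.11e-07. Thy1 ranked 26 of 13888 genes by p. By TPM, a level per transcript length, it was ranked among all genes with a count in the same library. It stood between the percentiles 18.3 and 22.2 in the controls and between 83.1 and 84.4 in the ablated libraries.

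Nt5e, the ecto-enzyme that turns AMP into adenosine outside the cell, stayed a low transcript in both groups. It had 78, 73 and 71 counts in the control libraries and 255, 234 and 251 in the ablated libraries, or 3.58, 3.84 and 3.11 against 10.9, 9.94 and 10.1 CPM. The groups were well apart, and the log2 fold change was 1.55 ± 0.40 (SE; 95% interval 0.67 to 2.43; adjusted p by edgeR = 0.0334). Its TPM percentile went from at most 23.4 in the controls to at most 40.1 in the ablated libraries. The adjusted p rose above 0.05 in 5 of the 6 fits that left out a library (all but the one without control replicate 1; edgeR), where the log2 fold change stayed between 1.47 and 1.62.

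Ly6a, the Sca-1 antigen of mouse progenitors, had 337, 343 and 234 counts in the control libraries and 1144, 1223 and 1109 in the ablated libraries. The normalized counts were 15.5, 18.0 and 10.2 CPM against 48.8, 52.0 and 44.6 CPM, so the third control was the lowest library and the groups stood apart. The log2 fold change was 1.73 ± 0.26 (SE; 95% interval 1.18 to 2.29), or 3.32-fold (adjusted p by edgeR = 0.001002). Ly6a belongs to a family of similar mouse genes, but its counts were whole in all 6 libraries, so the counting shows no sign of reads divided with a relative.

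Eng, the endoglin co-receptor that binds BMP and TGF-beta ligands, was among the most abundant members in both groups. Control libraries had 525, 499 and 538 CPM, and ablated libraries had 849, 677 and 651 CPM. Ablated library 1 was the highest, and the other two exceeded the controls by less. The log2 fold change was 0.48 ± 0.13 (SE; 95% interval 0.19 to 0.76; adjusted p by edgeR = 0.0424), or 1.39-fold. It did not pass in any of the 6 fits that left out a library (log2 fold change 0.35 to 0.55), was 0.35 without ablated replicate 1 (adjusted p by edgeR = 0.166), and did not pass with upper quartile scaling (0.43, adjusted p by edgeR = 0.0614). Fpgs, which overlaps Eng in RefSeq, had between 499 and 778 counts, far below the at least 9484 of Eng.

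**Figure D2:**
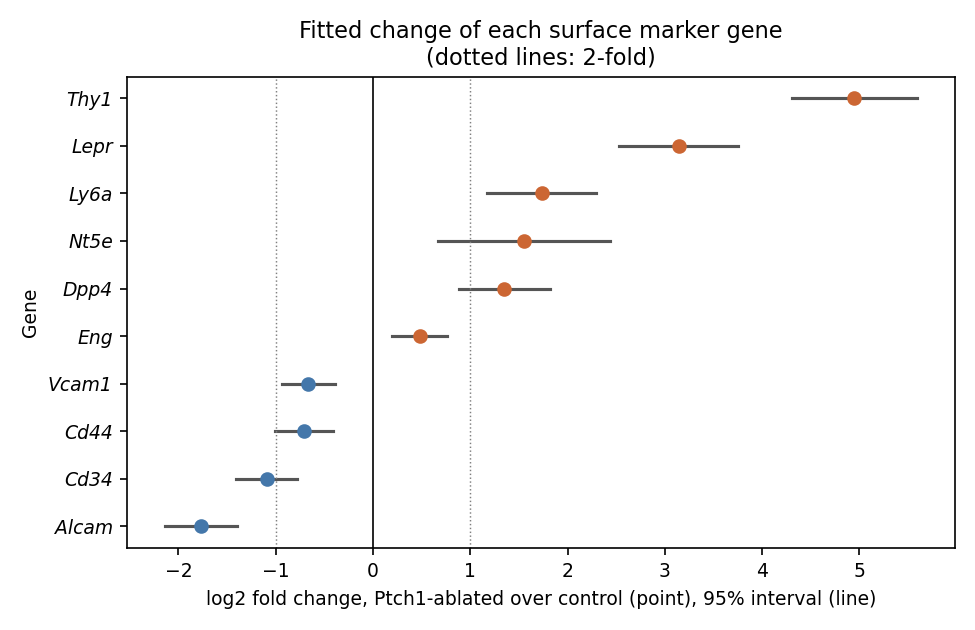
Fitted log2 fold change of each surface marker gene, Ptch1-ablated over control (point, orange for higher and blue for lower), with its 95% interval (line) from the edgeR fit over 3 libraries a group. The dotted lines mark 2-fold, and no interval reaches 0: Thy1 lies at 4.95 and Alcam at -1.77.

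Cd34, a sialomucin carried by keratocytes and by vascular endothelium, was lower in the Ptch1-ablated group. The 3 control libraries had 489, 641 and 535 CPM and the 3 ablated ones 278, 229.5 and 274 CPM. The groups did not overlap, and control library 2 was the highest. Cd34 fell by 1.09 ± 0.14 on the log2 scale (SE, adjusted p by edgeR = 0.000434), with a 95% interval of -1.41 to -0.78, which is 2.13-fold lower. Its fold lies near 2, and in the fit without control replicate 2 the log2 fold change was -0.97.

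The 3 immunoglobulin and link-type adhesion genes were lower as well. Alcam, for an adhesion molecule that binds itself and CD6, had 135, 115 and 120.4 CPM in the control libraries and 33.8, 40.2 and 34.7 CPM in the ablated libraries. The lowest control was well above the highest ablated library, and Alcam fell by 1.77 ± 0.17 on the log2 scale (SE; 95% interval -2.14 to -1.39; adjusted p by edgeR = 3.62e-05), or 3.40-fold. It ranked 113 of 13888 genes by p. Cd44, the main receptor for hyaluronan, had 218, 229.5 and 206 CPM in the controls and 127, 139 and 134 CPM in the ablated libraries. The libraries of each group lay close together, and Cd44 fell by 0.71 ± 0.14 on the log2 scale (SE; 95% interval -1.004 to -0.41; adjusted p by edgeR = 0.00609). With limma on log2(TPM + 1) it did not pass (-0.49, limma adjusted p = 0.0555). Vcam1, the ligand of integrin alpha-4 beta-1, had 534, 609 and 629 CPM in the controls and 363, 355 and 400.3 CPM in the ablated libraries. It fell by 0.66 ± 0.12 on the log2 scale (SE; 95% interval -0.93 to -0.39; adjusted p by edgeR = 0.00505), and the highest ablated library stayed below the lowest control.

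Lepr, the receptor for leptin and a mark of stromal progenitors in bone marrow, had 335, 235 and 618 counts in control libraries, and 3142, 4170 and 4323 after ablation. Normalized, the control libraries stood at 15.4, 12.4 and 27.1 CPM, with control 3 the highest, and the ablated libraries at 134, 177 and 174 CPM. The rise of 3.14 ± 0.28 on the log2 scale (SE; 95% interval 2.53 to 3.75) was 8.84-fold, with an edgeR adjusted p of 1.94e-05. Leaving out control replicate 3 moved it to 3.54 and leaving out control replicate 2 to 2.93. Lepr was the only member with counts that were not whole in all 6 libraries, as RSEM gives where it divides reads between gene models. Leprot, a neighbouring gene that does not overlap Lepr in RefSeq, had whole counts in all 6 libraries. Its log2 fold change was 0.32 ± 0.18 (SE, adjusted p by edgeR = 0.375). Which gene model shared reads with Lepr was not tested.

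Dpp4, a membrane protease that clips peptides after proline or alanine and marks progenitors in the connective tissue around fat and skin, had 29.3, 30.8 and 34.0 CPM in the controls. The ablated libraries had 60.1, 97.5 and 82.3 CPM, so they varied more than the controls but lay above them. The log2 fold change was 1.35 ± 0.21 (SE; 95% interval 0.88 to 1.82), or 2.55-fold (adjusted p by edgeR = 0.00168).

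Levels can be set beside each other between genes on the TPM scale, which accounts for transcript length. In the controls Cd34 had the highest level (487 ± 68.0 TPM, SD, n = 3), followed by Vcam1 (373 ± 37.8) and Eng (324 ± 18.0), whose libraries overlapped. Cd44 followed at 104 ± 4.05 TPM, then Alcam at 51.1 ± 4.06 and Ly6a at 39.8 ± 10.2, which overlapped. Dpp4 (15.1 ± 2.13 TPM), Lepr (7.83 ± 3.24) and then Nt5e (2.09 ± 0.180) and Thy1 (1.80 ± 0.274), which overlapped, made up the lower end. In the Ptch1-ablated group Eng stood highest (523 ± 77.5 TPM, SD, n = 3), and Vcam1 (272 ± 9.44) and Cd34 (265 ± 17.1) overlapped behind it. Ly6a came next at 155 ± 20.2 TPM. Lepr (81.5 ± 13.02 TPM), Cd44 (73.7 ± 6.52) and Thy1 (64.9 ± 4.65) formed a run in which each overlapped its neighbour, ahead of Dpp4 (43.9 ± 10.7), Alcam (17.5 ± 2.53) and Nt5e (7.11 ± 0.380). Thy1 thus went from the lowest place to the seventh, and Alcam from the fifth to the ninth.

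**Figure D3:**
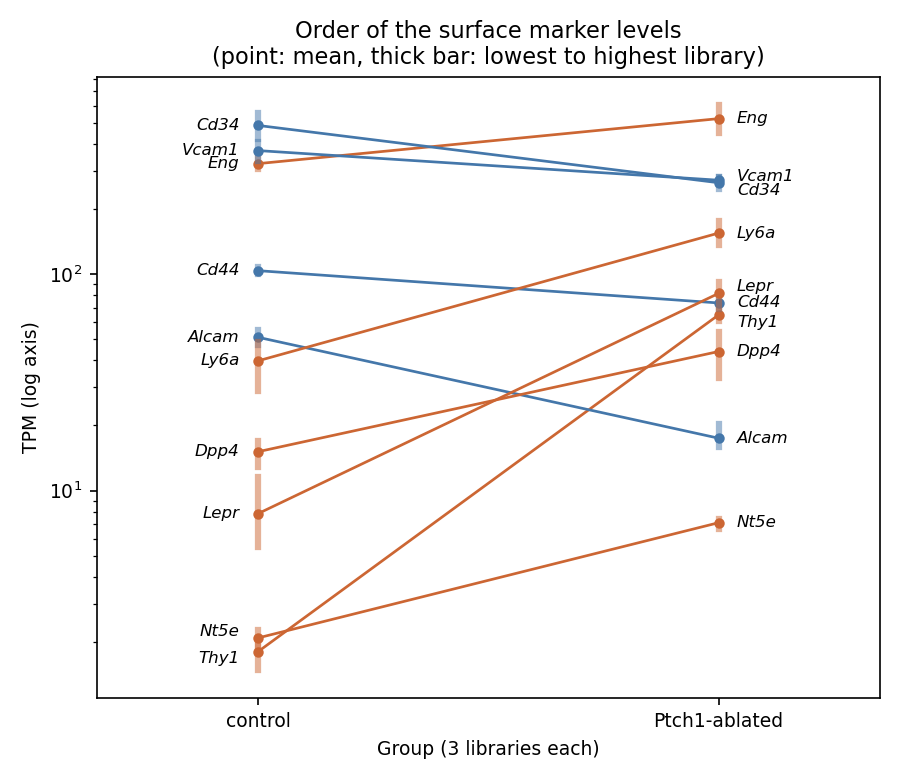
Mean TPM (log axis) of the 10 surface marker genes in the control group and the Ptch1-ablated group, with a thick bar from the lowest to the highest of the 3 libraries and a line joining the groups (orange for genes that were higher, blue for genes that were lower). Cd34 leads in the controls and Eng in the ablated group, and Thy1 climbs from 1.80 to 64.9 TPM.

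Added up on the TPM scale, the 10 genes overlapped between the groups in level but not in makeup. Their TPM sum was 1298, 1474 and 1444 in the control libraries and 1555, 1538 and 1417 in the ablated libraries. TPM is not scaled by TMM and lay higher in the ablated group over all genes tested. The median log2 fold change was 0.19 (pseudocount 1) and 0.22 (pseudocount 0.1) with limma on TPM, against 0.0046 in the main fit. The overlap in level therefore holds for TPM only. Summed as CPM, the 10 genes lay lower in every ablated library than in any control, with a small gap between the nearest libraries (control 1 and ablated 1). This difference was not tested. The 6 genes that rose summed to 391 ± 11.6 TPM in the controls and 876 ± 80.7 in the ablated libraries, and the 4 that fell summed to 1014 ± 93.2 and 628 ± 6.09 TPM (SD, n = 3 each, sums over genes already split by their change). Cd34 made up between 32.5% and 37.8% of the summed TPM in the controls and between 16.02% and 18.9% in the ablated libraries, while Eng went from between 20.9% and 24.8% to between 31.8% and 38.9%. Ly6a made up between 1.99% and 3.31% in the controls and between 9.60% and 11.5% after ablation. The Thy1 level amounted to 0.455%, 0.359% and 0.309% of the Cd34 level in the control libraries and to 22.9%, 28.3% and 22.7% in the ablated libraries, a description with no test.

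Partners, relatives and further progenitor markers of these genes, 92 in all, were read from the same fit. Of 81 that were tested, 26 passed (17 higher and 9 lower), which is 32.1%, beside 8.48% of all genes, and their median log2 fold change was 0.31. Without ablated replicate 3 the count was 17 (11 higher and 6 lower). These lists too were chosen with earlier results of these data known, so their share is a description only. Among 18 other progenitor markers 4 rose and 1 fell (median 0.36). Cd200, for an immune-regulating surface glycoprotein, rose from 27.8 ± 6.21 to 81.5 ± 11.9 CPM (SD, n = 3 each; adjusted p by edgeR = 0.000683), and Cxcl12, for the chemokine that holds blood stem cells near marrow stroma, from 67.3 ± 9.39 to 138 ± 12.1 CPM (adjusted p by edgeR = 0.00183). Susd2 had a log2 fold change of 1.11 ± 0.30 (SE, adjusted p by edgeR = 0.0380). Mcam (CD146), named after its value was seen, had 1.34 ± 0.36 (SE, adjusted p by edgeR = 0.0407). Prrx1, the mesenchymal transcription factor gene into which the Cre is knocked, fell by 0.71 ± 0.14 on the log2 scale (SE, adjusted p by edgeR = 0.00610). Since the control genotype is not given, the Cre allele and the loss of Ptch1 cannot be told apart, for this gene or for any other gene here. The platelet-derived growth factor receptors, also named after their values were seen, did not pass: Pdgfra had a log2 fold change of 0.11 ± 0.20 and Pdgfrb of 0.11 ± 0.13 (SE, adjusted p by edgeR = 0.835 and 0.735).

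Around Nt5e, 3 of 11 genes of extracellular adenosine passed, 1 higher and 2 lower (median log2 fold change 0.40). Alpl, the tissue-nonspecific alkaline phosphatase, which also splits AMP and marks stromal stem cells, was counted 0, 5 and 26 times in control libraries and 418, 433 and 384 times after ablation (log2 fold change 5.17 ± 0.84, SE, adjusted p by edgeR = 0.00211). Entpd1 (CD39), which makes the AMP that Nt5e uses, fell by 0.76 ± 0.15 on the log2 scale (SE, adjusted p by edgeR = 0.00586). Slc29a1, the carrier that takes adenosine up, fell from 264 ± 13.9 to 129 ± 8.65 CPM (SD, n = 3 each; adjusted p by edgeR = 0.000427).

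Of 12 ligands, receptors and sheddases around endoglin, 10 were in the table and 4 passed, 3 higher and 1 lower (median log2 fold change -0.03). Tgfb3, a TGF-beta ligand, had a log2 fold change of 0.80 ± 0.16, Mmp14, the membrane protease that releases endoglin, of 0.87 ± 0.18, and Acvrl1, the endothelial type I receptor ALK1, of 0.90 ± 0.22 (SE, adjusted p by edgeR = 0.00847, 0.00850 and 0.0268). Acvr2a, a type II receptor for activins, fell by 0.91 ± 0.23 on the log2 scale (SE, adjusted p by edgeR = 0.0300).

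Of the 12 genes for hyaluronan and CD44 partners, 1 rose and 1 fell (median 0.31). Spp1, for osteopontin, a secreted CD44 ligand, went from 12.6 ± 2.61 to 42.9 ± 3.82 CPM (SD, n = 3 each; adjusted p by edgeR = 0.000638), and Cemip, for a protein that breaks hyaluronan down, from 70.9 ± 1.84 to 28.6 ± 6.01 CPM (adjusted p by edgeR = 0.00180). Among 14 adhesion partners 2 rose and 2 fell (median -0.18). Itga4, the alpha-4 chain of the Vcam1 receptor, fell by 1.54 ± 0.27 on the log2 scale (SE, adjusted p by edgeR = 0.00307). The beta chains that pair with it, named after their values were seen, did not pass: Itgb1 had a log2 fold change of -0.25 ± 0.14 and Itgb7 of 0.60 ± 0.42 (SE; adjusted p by edgeR = 0.353 and 0.479). Itgb5 fell by 0.79 ± 0.21 (SE, adjusted p by edgeR = 0.0342). Itgam, a myeloid integrin chain, rose by 0.79 ± 0.20 and Adam17, a protease that sheds Vcam1 and Alcam, by 0.73 ± 0.19 (log2 scale, SE, adjusted p by edgeR = 0.0316 and 0.0362).

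Relatives of Cd34 and Ly6a, genes listed with Dpp4 and partners of Lepr were read in the same way. Podxl, for podocalyxin, the relative of Cd34, rose from 34.7 ± 6.32 to 88.2 ± 21.9 CPM (SD, n = 3 each; adjusted p by edgeR = 0.00284), and the other relative, Podxl2, had a log2 fold change of 1.04 ± 0.33 (SE, adjusted p by edgeR = 0.0828). Among 4 tested genes listed with Dpp4 for a similar name or activity, 2 passed, both lower (median -0.79). They were Dpp7, by 1.24 ± 0.20, and Fap, the fibroblast activation protein gene, by 1.21 ± 0.25 on the log2 scale (SE, adjusted p by edgeR = 0.00180 and 0.00952). Of 11 Ly6 family genes 5 were tested and 2 rose (median 0.78). Ly6e went from 282 ± 24.4 to 449 ± 6.07 CPM (SD, n = 3 each; adjusted p by edgeR = 0.00486), and Psca was counted 1, 5 and 4 times in control libraries and 88, 160 and 144 times after ablation (adjusted p by edgeR = 0.00454). Of 7 tested genes that act with the leptin receptor 3 passed, all higher (median 0.32). They were Ptpn1 and Socs3, which restrain its signal, and Stat3, which carries it, with log2 fold changes of 0.96 ± 0.15, 0.81 ± 0.13 and 0.58 ± 0.16 (SE, adjusted p by edgeR = 0.00164, 0.00230 and 0.0442). Leptin itself (Lep) had too few counts to be tested.

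Because several of these genes also belong to vessels and blood cells, marker lists for other cell types were summed in each library. Of 10 vascular endothelial markers 6 were higher at the edgeR threshold, and the sum of the 10 ran from 756 to 956 CPM in the controls and from 1136 to 1234 CPM in the ablated libraries. Pecam1 had a log2 fold change of 0.88 ± 0.24 and Cdh5 of 1.43 ± 0.28 (SE, adjusted p by edgeR = 0.0383 and 0.00785), beside 0.48 for Eng and 1.73 for Ly6a. Kdr, the endothelial VEGF receptor gene and the most abundant of the list, named after its value was seen, had 553 ± 87.3 CPM in the controls and 420.4 ± 15.7 CPM in the ablated libraries (SD, n = 3 each), with a log2 fold change of -0.40 ± 0.14 (SE; adjusted p by edgeR = 0.112, by DESeq2 = 0.0372). Vwf, also named after its value was seen, had the largest rise in CPM of the vascular list and weighs heavily in its sum. Its group means were 80.5 CPM in the controls and 290 CPM in the ablated libraries (adjusted p by edgeR = 1.03e-05). Of 8 mural cell markers 3 were higher, with sums of 945 to 1122 and 1345 to 1433 CPM. Rgs5 had 0.85 ± 0.12 and Kcnj8 1.54 ± 0.38 (log2 fold change, SE, adjusted p by edgeR = 0.000920 and 0.0265), beside 1.34 for Mcam. The part of vascular and mural cells in the values of Eng, Cd34, Ly6a, Mcam, Acvrl1 and Podxl was not tested.

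The T cell list, relevant to Thy1, summed to between 14.99 and 18.7 CPM in the controls and between 12.7 and 18.0 CPM in the ablated libraries, and none of its 6 tested genes passed in edgeR, DESeq2 or limma, or had an unadjusted p under 0.05 in any of them (Cd3e had a log2 fold change of -0.87, adjusted p by edgeR = 0.578, and Cd3d had at most 29 counts in a library). Thy1 alone stood at 42.1 CPM in the ablated group. The leukocyte list summed to between 2675 and 2827 CPM in the controls and between 3518 and 3558 CPM in the ablated libraries, with 2 of 10 genes higher (Laptm5 and Cd74) and a median log2 fold change of -0.0081 over the list. The other 8 genes summed to between 962 and 1021 CPM in the controls and between 821 and 1074 CPM in the ablated libraries, and Ptprc had a log2 fold change of 0.19 and Cd52 of -0.26 (adjusted p by edgeR = 0.767 and 0.839). The share of leukocytes in the values of Itgam, Spp1 and Thy1 was not tested.

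The keratocyte list had 4 of 6 tested genes lower (Tkt, Aldh3a1, Aldh1a1 and Kera), and its sum ran from 84366 to 94436 CPM in the controls and from 52586 to 70303 CPM in the ablated libraries. Kera fell by 1.59 ± 0.13 on the log2 scale (SE, adjusted p by edgeR = 1.08e-05), beside 1.09 for Cd34, and Lum had a log2 fold change of -0.07 (adjusted p by edgeR = 0.812). Corneal endothelial markers summed to between 649 and 780 CPM in the controls and between 437 and 756 CPM in the ablated libraries. Nearly all of this sum was Col8a2 (group means 699 CPM in the controls and 536 CPM in the ablated libraries), so it says little about the rest of the list. None of the 4 corneal endothelial genes passed in edgeR (1 had an unadjusted p under 0.05, and 1 passed, higher, in DESeq2 and in limma): Slc4a11 had a log2 fold change of 2.12 ± 0.61 and Col8a2 of -0.38 ± 0.19 (SE, adjusted p by edgeR = 0.0541 and 0.286). Corneal epithelial markers summed to between 39.6 and 69.0 CPM in the controls and between 2.68 and 9.68 CPM in the ablated libraries, with 3 of 6 tested genes lower and 1 higher. Krt5 had at least 83 counts in the controls and at most 17 in the ablated libraries, whereas Krt12 was at 0 in every control and had 21, 49 and 52 counts in the ablated libraries. Melanocyte markers stayed at or below 7.61 CPM in sum, with none of 3 tested genes passing, or at an unadjusted p under 0.05, in edgeR, DESeq2 or limma (Pmel 0.39, adjusted p by edgeR = 0.919) and Dct at 0 in every ablated library.

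**Figure D4:**
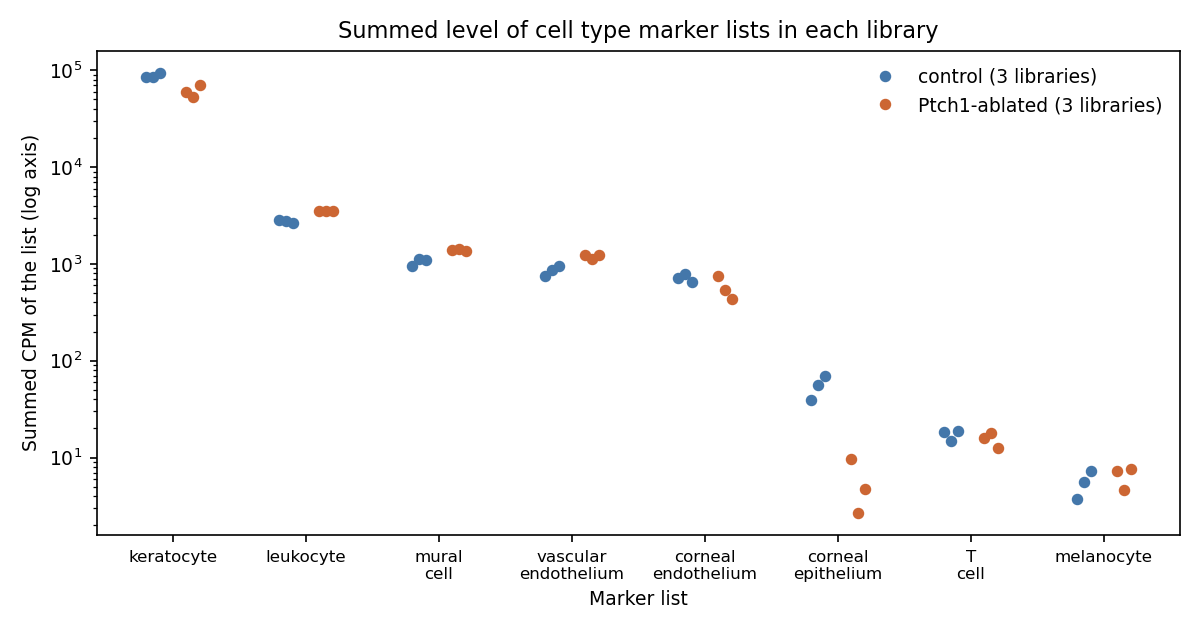
Summed CPM (log axis) of the cell type marker lists described here in the 3 control (blue) and 3 Ptch1-ablated (orange) libraries, 1 point a library. The vascular endothelial, mural and leukocyte sums lie higher in every ablated library (the leukocyte sum through Cd74 and Laptm5), the keratocyte and corneal epithelial lists lie lower, and the T cell list overlaps at 12.7 to 18.7 CPM.

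Across the 15 other ways of fitting the data, none of the 10 members changed direction, and neither did any of the 55 members, companion and marker genes that passed, wherever the fit held them. Thy1, Lepr, Ly6a, Dpp4, Vcam1, Cd34 and Alcam passed the threshold in all 15. Cd44 passed in 13, Nt5e in 8 and Eng in 7. The log2 fold change of Thy1 lay between 4.56 and 5.11, that of Lepr between 2.93 and 3.54, and that of Alcam between -1.84 and -1.50.

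**Figure D5:**
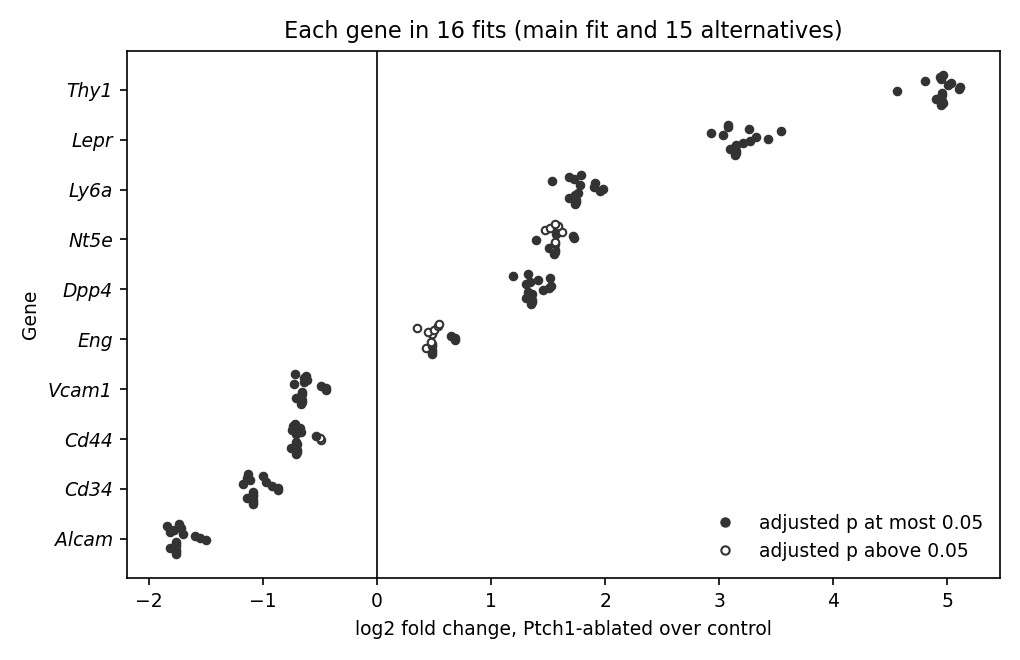
Log2 fold change (Ptch1-ablated over control) of each surface marker gene in the main fit and in 15 alternatives, 1 point a fit, filled where the adjusted p was at most 0.05 and open where it was above. Open points appear for Nt5e, Eng and Cd44 only, and no gene crosses 0.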

How the data were processed

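RNA of flow-sorted corneal keratocytes was compared between 3 control and 3 Ptch1-ablated libraries, grouped by the sample titles. Per the labels, Trizol was used for RNA and a TruSeq kit from Illumina for libraries, whereas the paper's methods describe ribosomal RNA depletion and a BGISEQ platform. The submitters' processing notes name Bowtie2 2.2.5, RSEM 1.2.12 and build mm9. The annotation and the strand setting are not given in the sources used here, so overlapping genes cannot be told apart. The deposited table holds RSEM expected counts (not normalized; 21.5% of those above 0 not whole within 0.001), and TPM and FPKM that the authors scaled by length and library. Their group averages were not used, and FPKM served for one alternative only.

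Expected counts were rounded, filtered with filterByExpr (13888 of 17606 genes, 99.9% of counts), scaled by TMM and fitted with edgeR 4.0.16 in R 4.3.3 (glmQLFTest after glmQLFit, two-sided, without covariates). P-values were adjusted by Benjamini-Hochberg across every gene tested. A gene passed at an adjusted p of at most 0.05. CPM uses the TMM-scaled total, and each SE comes from the F statistic and fold change together. Library totals of 20258414 to 24788039 counts set the precision, and libraries of the same group all differed by more than sampling noise (chi-square per degree of freedom at least 33.8). Alternatives were DESeq2 1.42.0, RLE and upper quartile scaling, no filter, a mean count of at least 50, each library left out, the replicate number as a block, and limma 3.58.1 on log2(TPM + 1) and log2(TPM + 0.1). Scaling by library totals only was added after seeing the data. The scripts were tested on simulated counts with 200 changed genes among 13888. There edgeR recovered 64.5% of the changes, and 49.1% of those with a log2 fold change of 1 in size, with 8 false calls. A gene that did not pass may therefore still differ.

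Members and lists were chosen with earlier results of these data known, so no list is independent support. The text names every member, up to 4 passing genes of each companion list by smallest adjusted p (with 0 passing, the 2 of highest mean count), the first 2 genes of each marker list and Ptch1. Others are named where a result turns on them or are listed with a count. Identifiers matched RefSeq for 17478 of 17606 genes (99.3%) and for all 10 members, and promoter sequences are from RefSeq GRCm38.p6. The result of 1 further marker list is not reported here.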

Additional observations from a re-analysis of the deposited data

How the results depend on the processing

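All 10 members kept their direction under all 15 alternatives. Between 8 and 10 members passed the threshold, and between 5 and 7 also had a 2-fold change (5 without control replicate 2). Cd44 missed the threshold in the limma fits with pseudocounts of 1 and 0.1 (log2 fold change -0.49 and -0.50, limma adjusted p = 0.0555 and 0.0584). Nt5e missed it without a low-count filter (edgeR adjusted p = 0.0515) and over all alternatives ranged from 0.00848 to 0.138. Eng ranged from 0.00279 to 0.175. The other 7 members passed throughout, and the highest adjusted p among them was 0.0438 (Vcam1, limma). The 763 genes with a 2-fold change that passed became 1051 and 943 with limma (768 and 692 higher, 283 and 251 lower) and 867 with library totals only (633 higher, 234 lower), against 467 higher and 296 lower with TMM. These 3 fits moved the median log2 fold change of all genes to 0.19, 0.22 and 0.17. In them Cd34 lay at -0.87, -0.87 and -0.92, under 2-fold. Leaving out a library gave between 611 and 756 such genes and between 17 and 23 companion genes that passed, beside 26 with all libraries.

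Libraries with the same replicate number did not deviate together (correlation of deviations -0.05, -0.05 and 0.04), so the numbers were not taken as pairs. With the replicate number as a block, 663 genes passed with a 2-fold change and 8 members passed, Nt5e (1.56, edgeR adjusted p = 0.0904) and Eng (0.47, 0.0679) being the exceptions.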
